A study of Mus musculus with 12 samples.

Results

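The genes described here encode secreted and membrane-bound proteases that cut the extracellular matrix, together with the inhibitors that block them. They are the matrix metalloproteinases Mmp2, Mmp9, Mmp10, Mmp13 and Mmp14, the urokinase plasminogen activator Plau, and the tissue inhibitors of metalloproteinases Timp1, Timp2 and Timp3. The set was chosen with earlier results of these data known. Taken by gene symbol, it holds 9 of the 78275 gene IDs in the deposited table. Of these 9, 8 passed the filter on low counts and were tested, and Mmp10 did not. All libraries come from C2C12, a wild-type mouse line of myoblasts, muscle precursors that form myotubes once serum is lowered. Transfection delivered either a non-targeting control siRNA or an siRNA against Zfp143, the gene of a zinc finger transcription factor. Uninduced cells were collected 24 h after transfection, still in growth medium with 10% fetal bovine serum. Induced cells were then kept in medium with 1% horse serum for 5 days, so induction also means another serum, a lower serum content and 5 more days after the siRNA.

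Each of the 4 groups has 3 polyadenylated RNA libraries, and the labels name 1 batch. A single line and a transient transfection limit the model, and no label says that the 3 libraries of a group were separate cultures. P-values therefore measure the spread between these samples, which may be technical. Library preparation did not keep the strand of the RNA.

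Metalloproteinases are made as inactive precursors and cut collagens, gelatins, proteoglycans and other matrix proteins once activated. The TIMP proteins bind the active site and block it, and the balance between proteases and inhibitors sets how much matrix is cut. Urokinase turns plasminogen into plasmin, which cuts fibrin and activates several metalloproteinase precursors, while MMP14 on the cell surface, with TIMP2 as a bridge, activates the MMP2 precursor. In muscle, these enzymes are known for roles in myoblast migration, fusion and the repair of injured fibres. RNA levels report neither activation nor inhibition of the proteins.

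The libraries held 13.5 M to 19.1 M estimated counts, and 2 of them stood apart from their groups. Uninduced control replicate 3 gave 6.02% of its counts to the mitochondrial genome, and the other libraries of its group 2.63% and 2.90%. Induced Zfp143 siRNA replicate 1 was the shallowest library, with 13.5 M counts, and gave 1.95% to the mitochondrial genome. In uninduced cells Zfp143 itself fell from 30.3 ± 8.58 CPM (SD, n = 3) to 11.4 ± 1.10 CPM with its siRNA. In induced cells the control siRNA group stood at 19.4 ± 0.221 CPM and the Zfp143 siRNA group at 17.1 ± 2.50 CPM, which did not pass the test (edgeR adjusted p = 0.646). The induced comparison thus sets apart cells by the siRNA they had received 6 days before, not by a measured lack of the transcript. CPM here is the estimated count of a gene per 1 M counts, with libraries scaled by TMM factors, a correction for RNA composition.

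Of the 10 macrophage and leukocyte markers, Adgre1 and C1qa were at 0 in all 12 libraries. The list summed to between 18.7 and 39.4 CPM, most of it Cd14, with Cd68 and Csf1r also found in every group. The 9 osteoblast and chondrocyte markers summed to between 67.5 and 119 CPM, with Runx2 or Sox9 highest and Ibsp, a marker of mature osteoblasts, at 0 in every group. The 5 endothelial markers summed to at most 7.79 CPM, with Tek or Vwf highest. The 10 myoblast and myotube markers summed to between 356 and 403 CPM in uninduced control libraries and between 383 and 450 CPM in uninduced Zfp143 siRNA libraries. They summed to between 7701 and 9616 CPM in induced control libraries, and to between 3028 and 3934 CPM in induced Zfp143 siRNA libraries. In a bulk sample, fewer cells of a type and less RNA per cell cannot be told apart.

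Levels of different genes were compared as TPM, which is per length. Timp1 was the highest of the 9 in uninduced control cells, at 239 ± 31.9 TPM (SD, n = 3), followed by Timp2 at 157 ± 50.8 TPM, Mmp14 at 88.3 ± 33.6 TPM and Timp3 at 84.5 ± 24.2 TPM. Mmp14 and Timp3 did not differ beyond their spread. Plau followed at 11.3 ± 2.96 TPM, Mmp13 at 3.35 ± 0.436 TPM and Mmp2 at 2.10 ± 0.834 TPM, while Mmp9 at 0.574 ± 0.288 TPM and Mmp10 at 0.121 ± 0.166 TPM were lowest. The membrane protease and the inhibitors were thus the abundant members before induction, and the secreted members Mmp2, Mmp9, Mmp10 and Mmp13 were scarce. This does not hold for all metalloproteinases, since Mmp11, outside the set, stood at 355, 333 and 163 TPM in the same libraries. After induction with the control siRNA, Timp2 came first at 893 ± 42.8 TPM, then Mmp14 at 463 ± 15.6 TPM and Timp1 at 299.9 ± 28.2 TPM. Plau stood at 85.6 ± 3.42 TPM, and Mmp13 at 46.9 ± 7.21 TPM and Mmp9 at 45.3 ± 2.17 TPM did not differ beyond their spread. Mmp2 at 20.9 ± 1.22 TPM and Timp3 at 16.2 ± 1.55 TPM lay below them, with Mmp10 last at 0.261 ± 0.218 TPM.

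**Figure D1:**
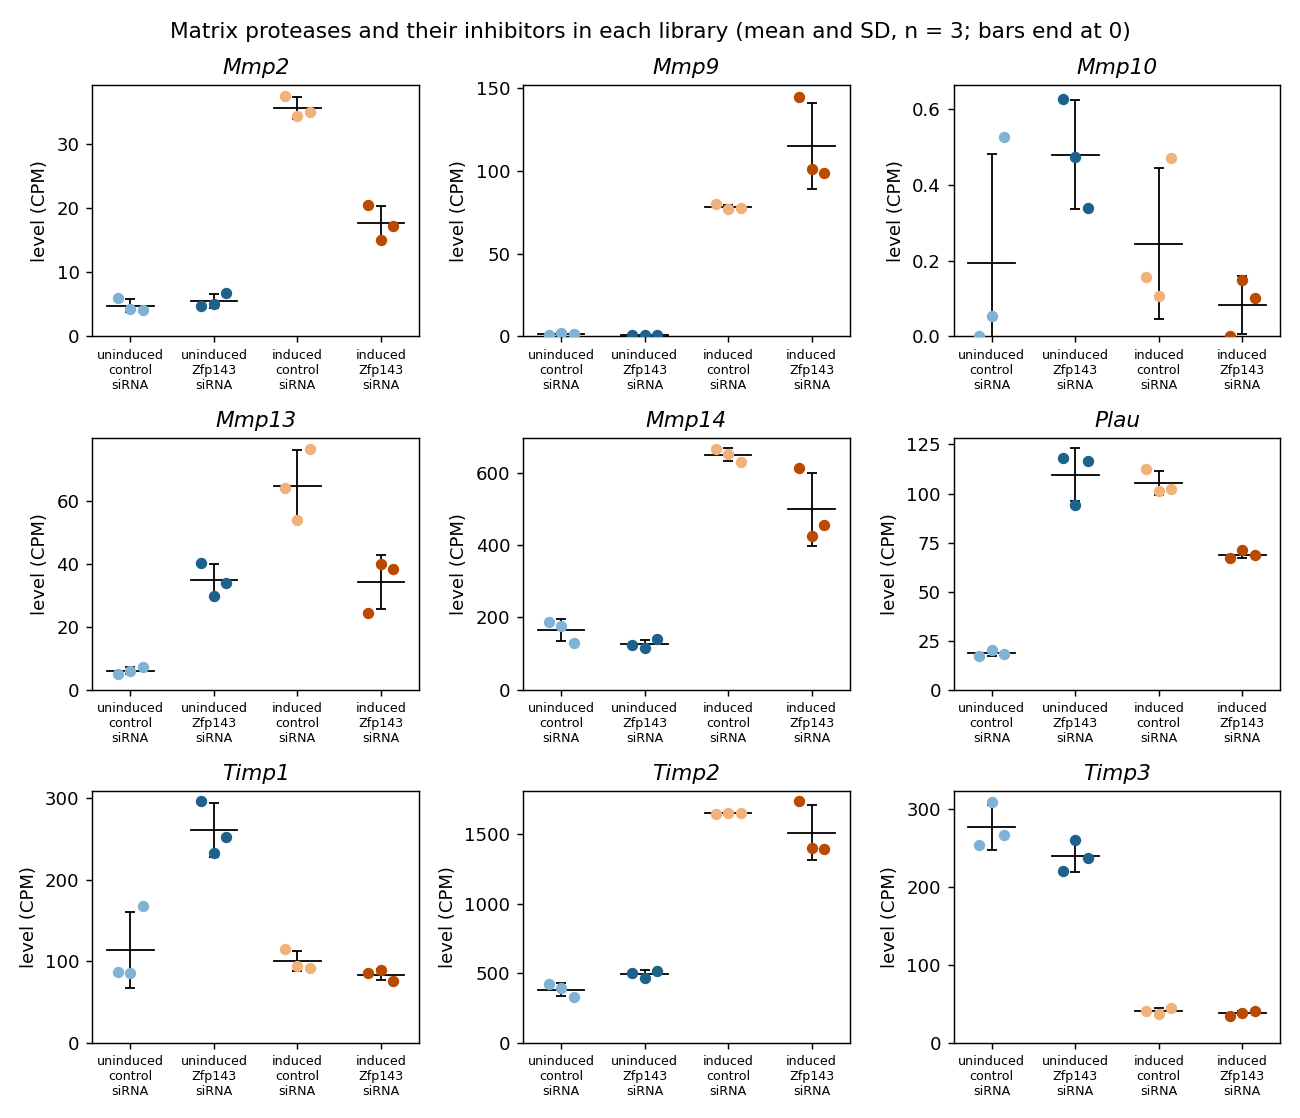
Level of each gene in CPM (vertical axis, from 0, a separate scale per gene) in each of the 12 libraries, by group. Points are libraries, the long bar is the mean and the whisker the SD (n = 3), drawn no lower than 0; Mmp13 and Plau rose with the Zfp143 siRNA in uninduced cells and fell with it in induced cells, while Mmp10 stayed under 0.7 CPM in all libraries.

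The first comparison asks what the Zfp143 siRNA did in uninduced myoblasts. Plau, Mmp13 and Timp1 rose, and 5 of the 8 tested members did not pass the test. These 3 higher members stand against 15.4% of all 15030 tested genes called higher, and the 0 lower members against 17.1% called lower (edgeR, adjusted p under 0.05). At an unadjusted p under 0.05 edgeR gave 1 lower member, and DESeq2 and limma-voom each called 0 lower and 4 higher. The median log2 fold change was 0.29 over the members and -0.04 over all tested genes.

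Plau (ENSMUSG00000021822.4, chromosome 14) encodes urokinase. It stood at 17.1, 20.1 and 18.3 CPM in the uninduced control libraries and at 118, 94.2 and 117 CPM in the uninduced Zfp143 siRNA libraries. The groups lie far apart and each is narrow. Plau rose 5.92-fold, a log2 fold change of 2.57 (SE 0.121; edgeR adjusted p = 7.91e-09). Its estimated counts are not whole in 7 of 12 libraries, which marks a gene whose reads the authors' quantification divided among transcripts of more than 1 gene.

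Mmp13 (ENSMUSG00000050578.11, chromosome 9) encodes collagenase-3, which cuts fibrillar collagens. Its levels were 5.05, 5.82 and 7.23 CPM with the control siRNA and 40.3, 29.8 and 33.9 CPM with the Zfp143 siRNA. Every Zfp143 siRNA library lay above every control library. Mmp13 rose 5.76-fold, a log2 fold change of 2.53 (SE 0.211; edgeR adjusted p = 1.17e-06).

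Timp1 (ENSMUSG00000001131.12, chromosome X), a soluble inhibitor of most secreted metalloproteinases, stood at 87.0, 85.6 and 167 CPM with the control siRNA. It stood at 297, 232 and 253 CPM with the Zfp143 siRNA. The groups did not overlap, and the highest control library was replicate 3, the one with the high mitochondrial share. Timp1 rose 2.30-fold, a log2 fold change of 1.20 (SE 0.211; edgeR adjusted p = 0.000701), and with 1 library left out the value ran from 1.03 to 1.60. Timp1 lies within Syn1 on the opposite strand, with 0 exonic bases shared.

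Markers of other cell types moved in the same comparison. The macrophage and leukocyte list, whose cells are known for Plau and Timp1, summed to between 22.7 and 31.2 CPM with the control siRNA. With the Zfp143 siRNA it summed to between 31.4 and 39.4 CPM, with 2 of its 4 tested markers higher. Cd68 had means of 1.52 and 5.71 CPM and Csf1r of 0.570 and 3.44 CPM, control siRNA first. Adgre1, C1qa and Itgam were at 0 in both groups. The osteoblast and chondrocyte list, whose cells are known for Mmp13, summed to between 67.5 and 89.3 CPM and between 84.0 and 88.1 CPM. In this list 3 of 5 tested markers were higher and 1 lower. Its 2 most abundant markers moved apart, Runx2 with means of 48.3 and 29.4 CPM and Sox9 with 31.2 and 53.5 CPM, control siRNA first. The fibroblast list summed to between 95.8 and 141 CPM with the control siRNA and between 148 and 159 CPM with the Zfp143 siRNA. In this list 1 of 7 tested markers was higher. Pdgfra had means of 42.7 and 71.6 CPM, control siRNA first, and Thy1 was at 0 in both groups. Of all tested genes, 15.4% were called higher and 17.1% lower. The part of these marker lists in the higher Plau, Timp1 and Mmp13 was not tested.

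The 5 other tested members did not pass. Timp2 (ENSMUSG00000017466.11, chromosome 11), which blocks metalloproteinases and helps to activate MMP2, stood at 424, 394 and 329 CPM with the control siRNA and at 504, 465 and 517 CPM with the Zfp143 siRNA. Its groups did not overlap, yet the log2 fold change of 0.37 (95% confidence interval 0.08 to 0.67) missed the threshold (edgeR adjusted p = 0.0521), and it passed under 8 of 21 alternative settings. Mmp14 (ENSMUSG00000000957.12, chromosome 14) stood at 186, 177 and 129 CPM with the control siRNA and at 122, 116 and 139 CPM with the Zfp143 siRNA. These overlap through control replicate 3, and the log2 fold change was -0.38 (edgeR adjusted p = 0.0839). Without that library the log2 fold change of Mmp14 was -0.52 and passed (edgeR adjusted p = 0.00733), without induced Zfp143 siRNA replicate 1 it was -0.39 (adjusted p = 0.0387), and without both it was -0.53 (adjusted p = 8.25e-05). Mmp9, the gelatinase B gene, was at -0.59 (95% confidence interval -1.28 to 0.10), Timp3, the matrix-bound inhibitor, at -0.21 (-0.47 to 0.05), and Mmp2, the gelatinase A gene, at 0.21 (-0.21 to 0.62) on the log2 scale.

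Mmp10 (ENSMUSG00000047562.4, chromosome 9), the stromelysin-2 gene, was near the limit of detection. Its estimated counts were 0, 1 and 8 in uninduced control libraries and 11, 8 and 6 in uninduced Zfp143 siRNA libraries. They were 3, 2 and 9 in induced control libraries and 0, 3 and 2 in induced Zfp143 siRNA libraries. A difference between the siRNAs was not detectable at this depth. With no filter on low counts, Mmp10 had a log2 fold change of 1.35 between the siRNAs in uninduced cells (edgeR adjusted p = 0.318), and it passed in 1 comparison, induction with the Zfp143 siRNA (-2.35, adjusted p = 0.0249).

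The promoters of Mmp13 and Mmp10, genes of the same run on chromosome 9, held a pair of motifs. That pair was not found in those of Mmp14 and the 3 Timp genes, the only other members searched. The 100 bases before the annotated start are therefore shown for Mmp13 and Mmp10. They are also shown for Timp1, which rose with Mmp13, and for Mmp14, the most abundant protease of the set. RefSeq's table for GRCm38.p6, a different build from the GRCm39 of the counts, held 6 of the 9 members. The windows are chr9:7272414-7272513 for Mmp13, chr9:7502242-7502341 for Mmp10, chrX:20870066-20870165 for Timp1 and chr14:54431498-54431597 for Mmp14, all on the plus strand. Capitals mark the AP-1 motif TGANTCA and the TATA box TATAAA, each searched on both strands.
Mmp13: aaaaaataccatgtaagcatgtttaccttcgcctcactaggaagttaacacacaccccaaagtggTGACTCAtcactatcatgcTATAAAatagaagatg
Mmp10: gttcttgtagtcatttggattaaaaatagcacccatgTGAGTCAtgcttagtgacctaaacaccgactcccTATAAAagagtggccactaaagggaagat
Timp1: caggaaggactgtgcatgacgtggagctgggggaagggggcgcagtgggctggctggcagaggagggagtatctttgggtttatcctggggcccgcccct
Mmp14: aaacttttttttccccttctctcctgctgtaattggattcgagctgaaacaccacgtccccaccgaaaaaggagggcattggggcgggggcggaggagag

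In Mmp13 the AP-1 letters lie at -35 to -29 and the TATA box at -16 to -11, counted from the annotated start. In Mmp10 they lie at -63 to -57 and at -29 to -24. Neither motif was found in the 250 bases before the start of Mmp14, Timp1, Timp2 or Timp3. Of 32851 promoters, 6.75% held TGANTCA and 12.4% held TATAAA in those 250 bases. The Sp1 box GGGCGG was in the same stretch of Mmp14, Timp1, Timp2 and Timp3 and in 32.7% of all promoters. It was not in that of Mmp13 or Mmp10. The E-box CANNTG was in 5 of the 6, all but Timp1, and in 66.2% of all promoters, and in Mmp10 an E-box match overlaps the AP-1 letters by 2 bases. The core of the ZNF143 site, searched as CCCANNATG, was in none of the 6 and in 4.06% of all promoters. A match is a description of the letters and not evidence of binding.

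Mmp13 and Mmp10 belong to a run of 10 metalloproteinase genes on chromosome 9. Mmp13 gave by far the most counts of the run, with 309, 1810, 3710 and 1939 summed over the 3 libraries of the uninduced control, uninduced Zfp143 siRNA, induced control and induced Zfp143 siRNA groups. Mmp3, the stromelysin-1 gene between them, gave 14, 45, 337 and 290 counts in the same order. Mmp8, a neutrophil collagenase gene, gave 0, 2, 147 and 127. Beside Mmp10, the 6 remaining genes of the run gave at most 5 counts in a group.

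The second comparison asks how cells that had received the Zfp143 siRNA differed after 5 days of induction. Mmp2, Mmp13 and Plau fell, Mmp9 rose, and 4 of the 8 tested members did not pass. The 3 lower members stand against 5.77% of all tested genes called lower, and the 1 higher member against 3.73% called higher. The median log2 fold change was -0.32 over the members and -0.03 over all tested genes.

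Mmp2 (ENSMUSG00000031740.9, chromosome 8), a gelatinase that also cuts basement membrane collagen, stood at 37.6, 34.5 and 35.0 CPM with the control siRNA and at 20.6, 15.05 and 17.3 CPM with the Zfp143 siRNA. The groups are well separated. Mmp2 fell by 1.02 on the log2 scale (SE 0.168; edgeR adjusted p = 0.000911), to 49.3% of the control level. Its estimated counts are not whole in any of the 12 libraries.

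Mmp13 stood at 64.1, 54.0 and 76.3 CPM with the control siRNA and at 24.4, 40.0 and 38.2 CPM with the Zfp143 siRNA. The groups do not overlap, and both are wide. Mmp13 fell by 0.92 on the log2 scale (SE 0.192; edgeR adjusted p = 0.00554), to 52.9% of the control level. Plau stood at 113, 101 and 102 CPM with the control siRNA and at 67.0, 70.9 and 68.8 CPM with the Zfp143 siRNA. Each group is tight, with a clear gap between them. Plau fell by 0.61 on the log2 scale (SE 0.117; edgeR adjusted p = 0.00281), to 65.4% of the control level.

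Mmp9 (ENSMUSG00000017737.3, chromosome 2) stood at 79.9, 76.9 and 77.4 CPM with the control siRNA and at 145, 101 and 98.5 CPM with the Zfp143 siRNA. All 3 Zfp143 siRNA libraries lie above the controls, and replicate 1, the shallow library, lies highest. Mmp9 rose 1.47-fold, a log2 fold change of 0.56 (SE 0.166) close to the threshold (edgeR adjusted p = 0.0486). Without induced Zfp143 siRNA replicate 1 the log2 fold change of Mmp9 was 0.36 and did not pass (edgeR adjusted p = 0.175). It also did not pass without induced Zfp143 siRNA replicate 2, without any 1 of the induced control libraries, or without any 1 of the uninduced Zfp143 siRNA libraries (adjusted p from 0.0583 to 0.168).

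Mmp14 stood at 668, 653 and 631 CPM with the control siRNA and at 615, 427 and 457 CPM with the Zfp143 siRNA. The groups do not overlap, and replicate 1 of the Zfp143 siRNA group lies close to the controls. The log2 fold change of Mmp14 was -0.38 (95% confidence interval -0.73 to -0.04; edgeR adjusted p = 0.188). Without that library it was -0.56 and passed (edgeR adjusted p = 0.0349). Timp1 was at -0.27 (-0.72 to 0.19), Timp2 at -0.13 (-0.42 to 0.17) and Timp3 at -0.12 (-0.39 to 0.15) on the log2 scale, none of which passed the test.

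Markers of differentiation moved in this comparison too. Of the 10 myoblast and myotube markers, 7 were lower with the Zfp143 siRNA in induced cells, against 5.77% of all tested genes. Acta1, skeletal muscle actin, had 4206 ± 469 CPM (SD, n = 3) in induced control cells and 1435 ± 255 CPM in induced Zfp143 siRNA cells. Of the 7 tested fibroblast markers, 3 were lower, and the list summed to between 2533 and 2927 CPM against 1505 to 1602 CPM. The macrophage and leukocyte list summed to between 18.7 and 19.9 CPM with the control siRNA and between 24.8 and 29.0 CPM with the Zfp143 siRNA. In this list 1 of 4 tested markers was higher. Cd14 had means of 15.3 and 23.4 CPM, control siRNA first, and Adgre1 and C1qa were at 0. The part of these lists in the changes of Mmp2, Mmp13, Plau and Mmp9 was not tested.

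**Figure D2:**
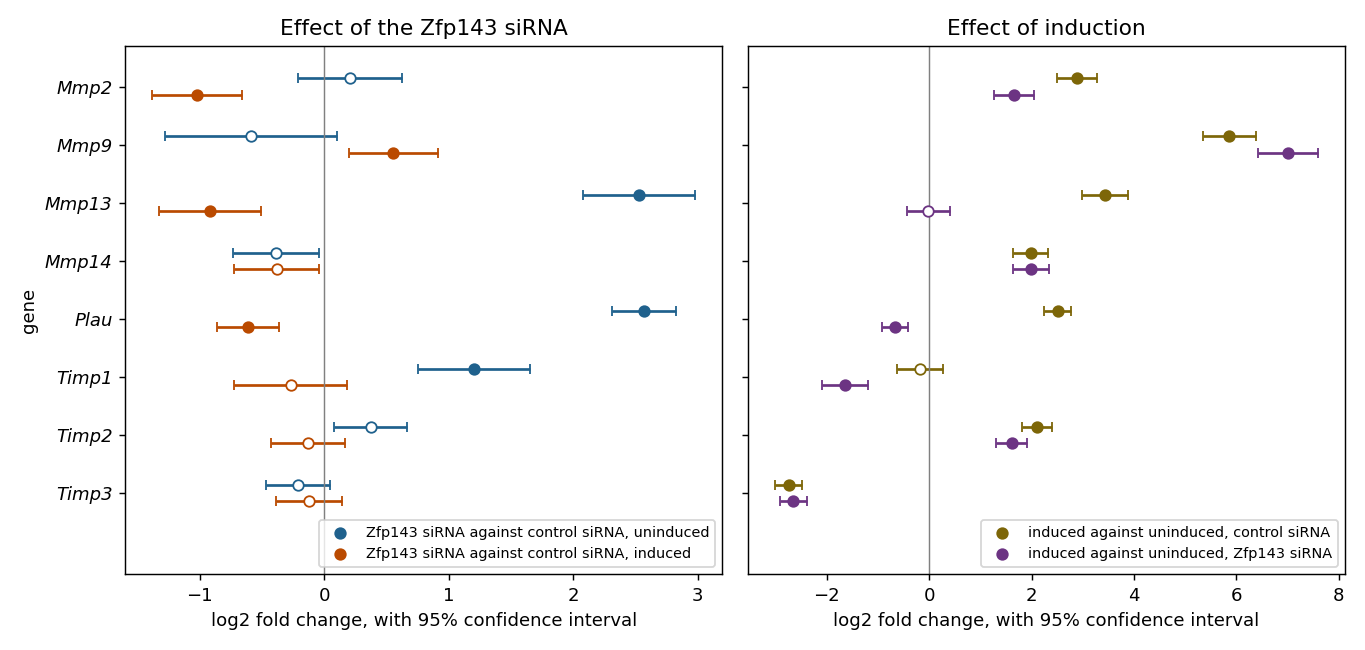
Log2 fold change (horizontal axis) of each tested gene by the Zfp143 siRNA (left) and by induction (right), with 95% confidence intervals from the edgeR fit. Filled points passed an adjusted p of 0.05 and open points did not; Plau and Mmp13 lie right of 0 in uninduced cells and left of 0 in induced cells, and Timp3 lies left of 0 with both siRNAs under induction.

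The siRNA effect differed between the states for 5 of the 8 members, by the interaction term of the same edgeR fit. The effect was lower in induced cells for 4 members, against 11.8% of all tested genes, and higher for 1, against 10.6%. The induced minus uninduced difference for Mmp13 was -3.45 on the log2 scale (SE 0.286; edgeR adjusted p = 1.93e-06). For Plau the difference was -3.18 (SE 0.168; adjusted p = 3.56e-08). Both proteases changed in opposite directions in the 2 states. For Timp1 the difference was -1.47 (adjusted p = 0.003), with a rise before induction and no change past the test after it. For Mmp2 it was -1.23 (adjusted p = 0.00353), where only the induced effect passed.

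Mmp9 was the member with the higher effect in induced cells, with a difference of 1.14 (edgeR adjusted p = 0.0329). This did not pass with limma-voom (adjusted p = 0.111), nor without uninduced control replicate 2 (0.80, edgeR adjusted p = 0.155), uninduced Zfp143 siRNA replicate 1 or 2, or any 1 of the induced control libraries (adjusted p from 0.054 to 0.0936). Mmp9 was below 2 CPM in all uninduced libraries. Timp2 had a difference of -0.50 (95% confidence interval -0.92 to -0.08; edgeR adjusted p = 0.0799), and without induced Zfp143 siRNA replicate 1 it passed at -0.61 (adjusted p = 0.0284). Timp3 had 0.09 (-0.28 to 0.46) and Mmp14 had 0.00 (-0.49 to 0.49).

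**Figure D3:**
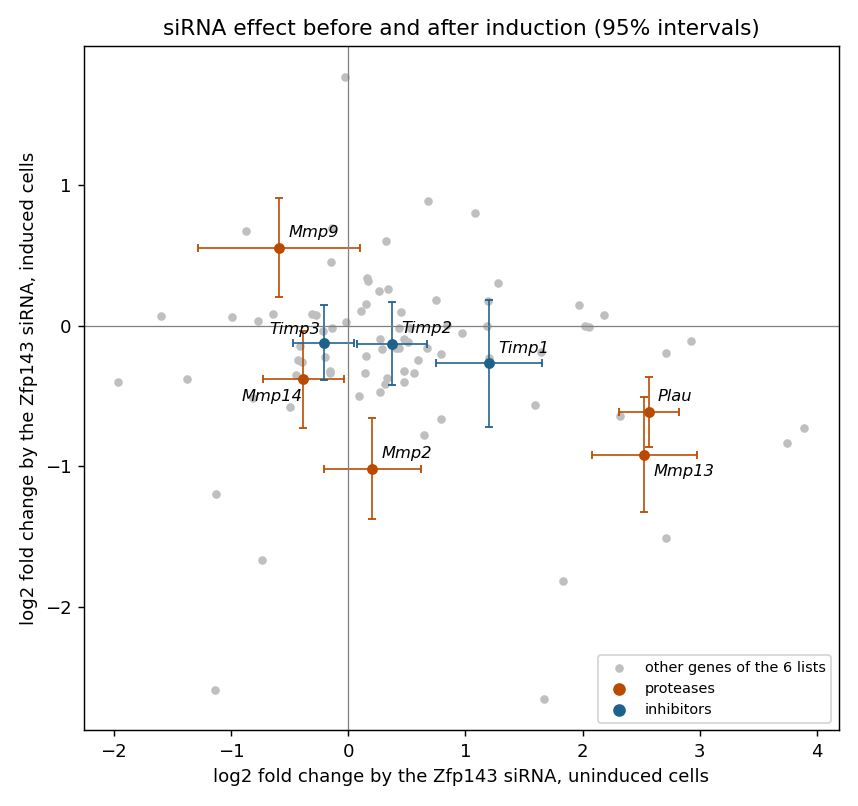
Log2 fold change by the Zfp143 siRNA in uninduced cells (horizontal axis) and in induced cells (vertical axis), with 95% confidence intervals for the 8 tested members and the other genes of 6 related lists as grey points. Plau and Mmp13 lie at the lower right, with values near 2.5 in uninduced cells and below 0 in induced cells.

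Induction with the control siRNA was seen only before and after 5 days, with serum and time since transfection changed as well. It raised 6 of the 8 tested members and lowered 1, against 33.2% of all tested genes called higher and 30.9% called lower. The median log2 fold change was 2.31 over the members and 0.03 over all tested genes. When libraries were scaled by size alone, the median over all genes moved to 0.21, with 5715 genes higher and 3652 lower against 4992 and 4644 with TMM factors.

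The 5 tested proteases all rose. Mmp9 stood at 0.924, 1.87 and 1.18 CPM in uninduced control libraries and at 78.1 ± 1.60 CPM (SD, n = 3) in induced control ones. It rose 58.4-fold, a log2 fold change of 5.87 (SE 0.241; edgeR adjusted p = 1.29e-11). Mmp13 rose 10.8-fold (log2 fold change 3.43), Mmp2 7.41-fold (2.89), Plau 5.69-fold (2.51) and Mmp14 3.96-fold (1.99). Mmp2 stood at 5.98, 4.34 and 4.07 CPM in uninduced control libraries. For these 5 genes the uninduced and induced control libraries, whose levels are given for each, do not overlap. The share of all tested genes without overlap was not counted, so this separation is not shown to be particular to these genes. By the edgeR test, a different measure, 33.2% were called higher and 30.9% lower here.

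The 3 inhibitors went separate ways. Timp2 stood at 1649.6, 1657 and 1655 CPM in induced control libraries, far above the uninduced ones, and rose 4.32-fold (log2 fold change 2.11; edgeR adjusted p = 6.41e-09). Timp3 (ENSMUSG00000020044.14, chromosome 10) stood at 254, 309 and 267 CPM before induction and at 41.3, 37.2 and 44.9 CPM after it. It fell by 2.75 on the log2 scale (SE 0.123; edgeR adjusted p = 1.04e-10), to 14.9% of the uninduced level. Timp3 shares 1733 of its 8144 exonic bases with Syn3 on the opposite strand, and Syn3 had 7 counts over all 12 libraries. Timp1 stood at 114, 94.7 and 92.1 CPM after induction, which overlaps the uninduced control libraries. Its log2 fold change was -0.17 (95% confidence interval -0.63 to 0.28), and 0.21 without uninduced control replicate 3, neither past the test.

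Other marker lists moved with induction too. The fibroblast list went from between 95.8 and 141 CPM in uninduced control libraries to between 2533 and 2927 CPM in induced control libraries, with 6 of 7 tested markers higher and 1 lower, and Thy1 at 0 in both groups. Of the 10 myoblast and myotube markers, 9 were higher and 1 lower, against 33.2% and 30.9% of all tested genes. The part of these lists in the changes of the members was not tested.

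Induction with the Zfp143 siRNA raised 4 members and lowered 3, against 36% of all tested genes called higher and 30.1% called lower. The median log2 fold change was 0.80 over the members and 0.10 over all tested genes, or 0.35 over all genes with libraries scaled by size alone, where 6597 were higher and 3371 lower against 5406 and 4526 with TMM factors. Both induction comparisons use libraries that also enter the siRNA comparisons, so their values are not independent of those above. Mmp9, at 0.742, 0.827 and 1.07 CPM before induction, rose with a log2 fold change of 7.01, Mmp14 with 1.99, Mmp2 with 1.66 and Timp2 with 1.61. Timp3, at 220.2, 260.0 and 237 CPM before induction and at 34.9, 38.2 and 40.4 CPM after it, fell by 2.66 on the log2 scale. Timp1 fell by 1.64 (edgeR adjusted p = 9.77e-06) and Plau by 0.67 (adjusted p = 0.000149). Mmp13 was at 34.7 ± 5.31 CPM (SD, n = 3) before and 34.2 ± 8.50 CPM after induction, a log2 fold change of -0.02 (95% confidence interval -0.43 to 0.40; adjusted p = 0.948) against the rise of 3.43 with the control siRNA.

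An exact two-sided permutation test of the log2 CPM of 3 against 3 libraries cannot give a p below 0.1. It gave that value for every member past the edgeR threshold in the 4 pairwise comparisons. The same value came out for Timp2 in uninduced cells and for Mmp14 and Timp1 in induced cells, which edgeR did not call. At this size the permutation test therefore does not separate called from uncalled members.

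Summed over the 5 metalloproteinases of the set, levels per length were 118, 111 and 54.6 TPM in uninduced control libraries and 81.2, 78.4 and 90.0 TPM in uninduced Zfp143 siRNA libraries. The sums of these 5 genes overlap between the groups through control replicate 3, the library with the high mitochondrial share. The induced control group stood at 576 ± 26.2 TPM (SD, n = 3) and the induced Zfp143 siRNA group at 479 ± 81.0 TPM. Mmp14 held 93.1% of this sum in uninduced control cells, 75.2% in uninduced Zfp143 siRNA cells, 80.4% in induced control cells and 77.3% in induced Zfp143 siRNA cells. The share of Mmp13 was 3.88% and 21.3% in uninduced cells and 8.11% and 6.01% in induced cells, control siRNA first. The share of Mmp9 was under 1% in uninduced cells, and 7.86% and 14.3% in induced cells. Sums in TPM carry no TMM scaling, and the TMM factors ran from 0.799 to 1.12 over the libraries. Timp1, for 1, went from 239 to 299.9 TPM with induction under the control siRNA, but from 113 to 100 CPM. In uninduced control replicates 1 and 3, Mmp14 stood at 111 and 49.7 TPM, but at 186 and 129 CPM. Mmp11, outside the set, stood there at 355 and 163 TPM, but at 479 and 344 CPM. The low levels of replicate 3 were thus less marked in CPM, and the spread of the TPM sums carries this difference of scale. Shares and ratios within a library do not depend on TMM scaling.

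The 3 inhibitors summed to 480.2 ± 41.3 TPM in uninduced control cells, 795 ± 36.7 TPM in uninduced Zfp143 siRNA cells, 1209 ± 33.0 TPM in induced control cells and 1137 ± 106 TPM in induced Zfp143 siRNA cells. Timp1 made up 50.4% and 68.0% of the sum in uninduced cells, and Timp2 made up 73.8% and 75.1% in induced cells. The leading inhibitor transcript thus passed from Timp1 to Timp2 with induction, under either siRNA. The ratio of the inhibitor sum to the metalloproteinase sum was 4.21, 4.61 and 7.94 in uninduced control libraries, and 10.3, 9.73 and 8.75 in uninduced Zfp143 siRNA libraries. The highest control value again belongs to replicate 3. It was 2.10 ± 0.0393 in induced control libraries and 2.39 ± 0.184 in induced Zfp143 siRNA libraries, whose ranges do not overlap. The order of the ratio between uninduced and induced control libraries holds for these 5 metalloproteinases and turns when other abundant ones are added, as given next.

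**Figure D4:**
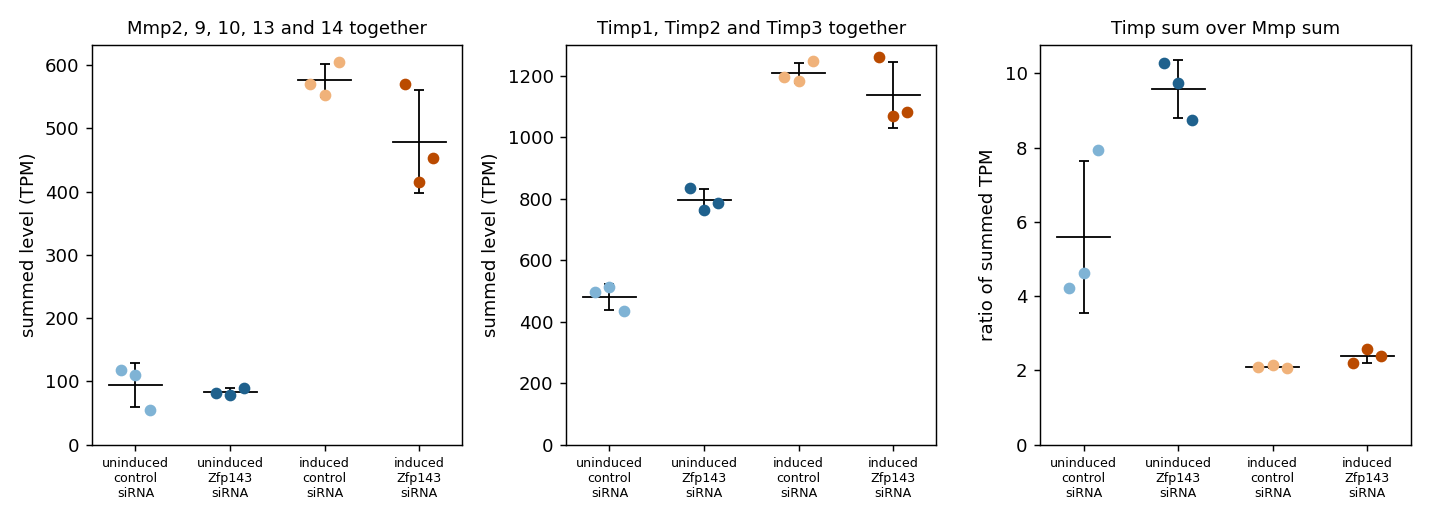
Summed TPM of the 5 metalloproteinases (left), of the 3 inhibitors (middle) and the ratio of the inhibitor sum to the metalloproteinase sum (right) in each library, by group, with mean and SD (n = 3) and axes from 0. For these 5 genes the ratio lies between 4.21 and 10.3 in uninduced libraries and between 2.06 and 2.58 in induced ones; with all 23 listed metalloproteinase genes it is lower in 3 of 3 uninduced control libraries, at 0.895 to 1.57, than in induced control libraries, at 1.60 to 1.66.

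These sums leave out other abundant metalloproteinases. Over all 23 listed metalloproteinase genes, a sum added after seeing the data, the levels were 554, 542 and 276 TPM in uninduced control libraries and 171, 179 and 185 TPM in uninduced Zfp143 siRNA libraries, which do not overlap. The induced groups stood at 744 ± 33.6 TPM (SD, n = 3) with the control siRNA and 638 ± 103 TPM with the Zfp143 siRNA. The ratio of the 3 inhibitors to this sum was 0.895, 0.944 and 1.57 in uninduced control libraries and 4.47 ± 0.366 in uninduced Zfp143 siRNA libraries. It was 1.63 ± 0.0316 in induced control libraries, above the uninduced control ones, and 1.79 ± 0.125 in induced Zfp143 siRNA libraries.

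Mmp11, the stromelysin-3 gene, stood at 355, 333 and 163 TPM in uninduced control libraries, above Mmp14, and at 64.0, 72.4 and 67.9 TPM in uninduced Zfp143 siRNA libraries. Of the 18 other metalloproteinase genes listed, 7 were tested. In uninduced cells 1 rose with the Zfp143 siRNA, Mmp3, and 3 fell. Mmp11 fell by 1.96 on the log2 scale (edgeR adjusted p = 3.19e-07), Mmp19 by 1.59 (adjusted p = 2.08e-07) and Mmp28 by 0.87 (adjusted p = 0.00359). Mmp13 was thus higher while Mmp11 was lower in the same uninduced libraries. In induced cells 1 was higher, Mmp28 at 0.68 (adjusted p = 0.0429), and 0 were lower (2 at an unadjusted p under 0.05, and 1 by DESeq2 and by limma-voom). The rise of Mmp28 was called by DESeq2 and not by limma-voom, and its Zfp143 siRNA libraries stood at 18.1, 10.9 and 11.7 CPM, highest in the shallow replicate 1. This and the other related lists were chosen with earlier results of these data known. Beside them, 15.4% of all tested genes were called higher and 17.1% lower with the Zfp143 siRNA in uninduced cells. In induced cells 3.73% were called higher and 5.77% lower.

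In the plasminogen system, which surrounds urokinase, 12 of 15 listed genes were tested, and in uninduced cells 5 rose with the Zfp143 siRNA and 1 fell. Plaur, the urokinase receptor, went from 84.9 ± 5.72 CPM (SD, n = 3) to 194 ± 15.6 CPM, a log2 fold change of 1.19 (edgeR adjusted p = 4.93e-06). Serpinf2, which encodes the plasmin inhibitor alpha-2-antiplasmin, went from 0.764 ± 0.234 CPM to 10.4 ± 1.44 CPM (3.74). The transcripts of urokinase and of its receptor were therefore both higher in the uninduced Zfp143 siRNA libraries. In induced cells 1 rose and 1 fell, and the one that rose was Anxa2, a plasminogen-binding surface protein, with a log2 fold change of 0.70. Plaur fell with induction under the control siRNA, by 2.96 on the log2 scale, in the comparison in which Plau rose. Plg, plasminogen itself, was not tested, with 19 counts over all libraries.

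Among 12 other inhibitors and activators of metalloproteinases, 7 were tested, and in uninduced cells 3 rose with the Zfp143 siRNA and 1 fell. Reck, a membrane-anchored inhibitor, went from 7.60 ± 1.41 CPM (SD, n = 3) to 2.93 ± 0.538 CPM (log2 fold change -1.38; edgeR adjusted p = 0.000116). Bsg, the metalloproteinase inducer basigin, had a log2 fold change of 0.79, and Sparc one of 0.47. In induced cells edgeR called 0 in either direction (1 in each at an unadjusted p under 0.05), as did DESeq2 and limma-voom. Without both libraries that stand apart, 8 were tested and 3 rather than 1 fell in uninduced cells.

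Of 28 ADAM and ADAMTS proteases, 20 were tested. In uninduced cells 2 rose with the Zfp143 siRNA, among them Adam8, and 5 fell, among them Adam10 and Adamts12. In induced cells 2 fell, Adamts6 and Adamts12. Of the same 20, 15 rose with induction under the control siRNA and 18 under the Zfp143 siRNA. These counts stand against 33.2% and 36% of all tested genes called higher. Adamts7, a cartilage matrix protease, went from 12.7 ± 2.37 CPM (SD, n = 3) to 203 ± 3.61 CPM with the control siRNA.

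Of 21 cathepsins, hyaluronidases and other matrix-degrading enzymes and their inhibitors, 19 were tested, and in uninduced cells 11 rose with the Zfp143 siRNA and 0 fell (0 also at an unadjusted p under 0.05 in edgeR, and by DESeq2 and limma-voom). Prss23, a secreted serine protease, had a log2 fold change of 1.60 (edgeR adjusted p = 1.04e-06), Hyal1, a lysosomal hyaluronidase, 2.02, and Ctsk, cathepsin K, 2.92 at no more than 1.49 ± 0.305 CPM (SD, n = 3). In induced cells 1 rose and 3 fell, Prss23, Ctss and Htra1. Without both libraries that stand apart, in induced cells 10 of these enzymes fell rather than 3, 7 of the ADAM and ADAMTS proteases rather than 2, and 2 of the other metalloproteinases rather than 0. Over all genes, 1576 of 15415 tested fell in that setting, against 867 of 15030 in the main fit.

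AP-1 and ETS factors bind promoters of several metalloproteinase genes, and 15 of 15 listed were tested. In uninduced cells 9 rose with the Zfp143 siRNA and 2 fell. Fosl1, an AP-1 subunit, went from 149 ± 24.4 CPM (SD, n = 3) to 316 ± 24.1 CPM, and Etv4, an ETS factor, went from 7.61 ± 1.52 CPM to 34.7 ± 5.91 CPM (log2 fold change 2.19; edgeR adjusted p = 1.59e-06). Ets2 fell by 0.99 on the log2 scale, and Atf3, a factor related to AP-1, by 0.74 (edgeR adjusted p = 0.000148). In induced cells 1 rose, Fosl1 at 0.81, and 3 fell, or 7 without both libraries that stand apart. Atf3 fell there by 1.67 (edgeR adjusted p = 8.82e-07). Fos stood at 397 ± 105 CPM with the control siRNA and 113 ± 55.6 CPM with the Zfp143 siRNA in induced cells, a fall of 1.82 on the log2 scale (adjusted p = 0.00262), and at 8.93 ± 3.31 CPM and 31.9 ± 1.17 CPM in uninduced cells. The interaction for Fos was -3.65 (edgeR adjusted p = 0.000154), and that for Fosl1 was -0.28 and did not pass (edgeR adjusted p = 0.434). Of the 15 factors, 9 had a lower effect in induced cells, against 11.8% of all tested genes. The part of these factors in the changes of Mmp13 and Plau was not tested, and the promoter of Plau was not searched.

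**Figure D5:**
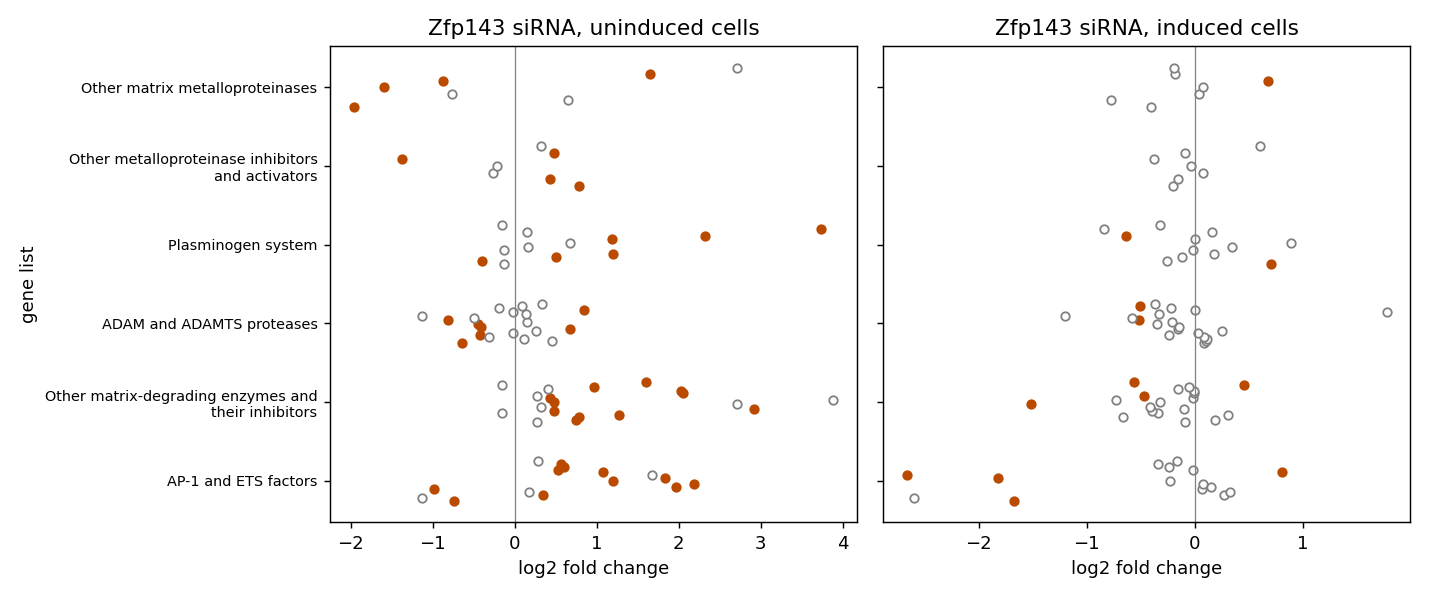
Log2 fold change by the Zfp143 siRNA (horizontal axis) of each tested gene in 6 related lists (rows), in uninduced cells (left) and induced cells (right); filled points passed an edgeR adjusted p of 0.05 and open points did not. In uninduced cells 9 of 15 AP-1 and ETS factors and 11 of 19 other matrix-degrading enzymes and inhibitors are filled on the right of 0. So are 5 of 12 genes of the plasminogen system, 3 of 7 other inhibitors and activators, 2 of 20 ADAM and ADAMTS proteases and 1 of 7 other metalloproteinases. Of all tested genes 15.4% were called higher, but the lists were chosen with earlier results of these data known.

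Over the 12 libraries, the log2 CPM of Mmp13 and Plau had a Pearson correlation of 0.95, and that of Mmp9 and Timp3 one of -0.99. Mmp14, Mmp2, Mmp9 and Timp2 formed a group whose pairs correlated at 0.91 to 0.97. These values describe 12 points that share their libraries, depth and 4 groups.

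Outside the set, the genes most like Plau were Errfi1 (Pearson correlation 0.99 over 12 libraries), Tnfaip3 (0.98) and Cryab (0.98). Tnfaip3, an NF-kB target, had means of 13.3, 73.0, 63.0 and 43.7 CPM in the uninduced control, uninduced Zfp143 siRNA, induced control and induced Zfp143 siRNA groups. Those most like Mmp13 were Atosa (0.99), Tspan32 (0.98) and Npc2 (0.98). Those most like Timp1 were Cybc1, Ensa and Creg1 (all 0.98).

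Mmp2 was most like Fgf1, Tpm2 and Tmem38a (all 0.99). Tpm2, a muscle tropomyosin, had means of 72.4, 87.8, 1017 and 429.6 CPM in the same order of groups. Mmp9 was most like Pnma8b, Dennd2b and Gas1, Mmp14 like Obsl1, Slc4a3 and Agrn, Timp2 like Ssc5d, Tapbp and C3, and Timp3 like Xpot, Ero1a and Srpk1, all between 0.996 and 0.999. Agrn, the agrin gene, had means of 51.3, 35.7, 429 and 341 CPM, in the same order as Mmp14 across the 4 groups.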

How the data were processed

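Polyadenylated RNA of 12 C2C12 libraries, 3 in each of 4 groups, was read without strand. Per the submitters' processing notes, reads were trimmed with fastp 1.0.1 and mapped with STAR 2.7.11b to GRCm39, and genes were quantified with Salmon (version not given in the sources used here). Each deposited estimated count is the authors' gene-level sum. The deposited score is the authors' TPM, called a score here because repeated lines raise the sum of a column. The deposited length is the authors' average effective transcript length, in bases. The 12 deposited FPKM columns were not used. Column names of induced Zfp143 siRNA replicates 2 and 3 have transposed letters and were matched to the libraries they otherwise spell. Of 78810 lines, 535 repeat a gene ID and were dropped.

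Counts were rounded, filtered with filterByExpr (minimum count 10, minimum total 15), scaled by TMM and fitted with edgeR 4.0.16's robust quasi-likelihood test in R 4.3.3, as 1 model of 4 group means with 8 residual degrees of freedom. Benjamini-Hochberg adjustment ran over 15030 genes in each of 5 comparisons, with a threshold of 0.05. The code was tested on simulated data. Alternatives used library size scaling, DESeq2 1.42.0 size factors and Wald test, limma 3.58.1 with voom, no filter, a transcript length offset, a replicate block, fewer groups and fewer libraries; data.table was at 1.17.8. Correlations used log2 CPM with a prior count of 2. Named genes are the members, Zfp143, up to 3 genes of smallest p per related list and comparison with at least 1 CPM in the higher group, the most abundant gene of each marker list, and the 3 genes most correlated with a member among those with at least 5 CPM in a group. Mmp3 in uninduced cells, Mmp8, Plg, Cd68, Csf1r and the markers at 0 were named after their values were seen. The members and lists were chosen with earlier results of these data known. Residuals of same-numbered libraries of different groups correlated between -0.0963 and 0.306, and of different-numbered ones between -0.279 and 0.249, so the numbers were not taken as pairs. 1 gene of the plasminogen list is counted but not reported here by name. The related lists without both libraries that stand apart, and the sums over all listed metalloproteinases, were added after seeing the data.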

Additional observations from a re-analysis of the deposited data

Results flagged for a closer look

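The effect of the Zfp143 siRNA differed between induced and uninduced cells, by the interaction term of the edgeR fit, for 5 members and for Zfp143 itself. The induced minus uninduced difference, on the log2 scale, was -3.18 for Plau, -3.45 for Mmp13, -1.47 for Timp1 and -1.23 for Mmp2. It was 1.14 for Mmp9 and 1.22 for Zfp143. The effect on the siRNA's target was thus itself smaller after 5 days of induction, and its part in the other differences was not tested.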

How the results depend on the processing

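Of 45 single-gene values under up to 21 alternatives, none reversed a call: 901 kept their side of the threshold, 17 newly passed and 18 no longer passed. The counts of members moved by over 1.5 times, or to or from 0, in 3 of 10 cases, and by 1 member in 4 others (3 to 4 higher in uninduced cells, 3 to 4 lower in induced cells, 4 to 5 lower for the interaction, and 3 to 4 lower under induction with the Zfp143 siRNA, where Mmp10 entered with no filter). Members lower with the Zfp143 siRNA in uninduced cells numbered 0, and 1 (Mmp14) without both libraries that stand apart; with 1 library left out the count ran from 0 to 1, at 1 without uninduced control replicate 3 or induced Zfp143 siRNA replicate 1. Members higher in induced cells numbered 1 (Mmp9), and 0 with a replicate block (Mmp9 0.55, edgeR adjusted p = 0.0535); with 1 library left out the count ran from 0 to 1. Members with a higher effect in induced cells numbered 1 (Mmp9), and 0 with limma-voom; with 1 library left out the count ran from 0 to 1. The replicate block also brought Timp2 past the test in uninduced cells (0.38, edgeR adjusted p = 0.0473) and changed no other call on a member; the numbers are not known to pair the libraries. Timp2 passed there also with RLE factors, a length offset, DESeq2, limma-voom, and without both libraries that stand apart, uninduced control replicate 1 or induced Zfp143 siRNA replicate 1 (adjusted p from 0.00542 to 0.0363). Zfp143 was higher after induction with its siRNA by 0.59, and by 0.51 and 0.47, not past the test, without uninduced or induced Zfp143 siRNA replicate 3. Mmp13 and Timp1 under induction, and the interaction of Mmp14, changed sign in 20 instances where no call was made in either setting. Where a library was left out fewer samples were fitted; the cause of the other changes was not tested. Depth limits Mmp10 and the uninduced levels of Mmp9.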
